A study of Mus musculus with 8 samples.

Results

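Accessible chromatin was described at 7 genes of the RUNX pathway: the transcription factor genes Runx1, Runx2 and Runx3, the gene of their shared binding partner, Cbfb, and the corepressor genes Runx1t1, Cbfa2t2 and Cbfa2t3. A region was taken when its midpoint lay inside the mm10 span of a gene or within 50 kb of it. Of 90736 accessible regions in the series, 164 met this rule, with 96 inside the spans and 68 outside them. The assay was ATAC-seq, in which a transposase cuts open chromatin and leaves sequencing adapters there. The cells were sorted long-term haematopoietic stem cells (HSC) of mouse bone marrow, and each library was made from 5000 nuclei. All 4 groups came from Vav1-cre iMOS Bcl11a mice, and a cre driven by Vav1 acts in blood cells. The age is labelled as 2 to 3 months. The groups were MUT T1, MUT T2, WT T1 and WT T2, where MUT and WT are the Bcl11a genotype as labelled and T1 and T2 are sorted populations. There were 2 libraries in each group. The sources used here do not say how T1 differs from T2 or whether libraries came from separate animals. What p-values measure is therefore the spread among these libraries only, which may be technical.

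RUNX proteins bind DNA through a conserved Runt domain. They do so tightly only together with CBFβ, a partner that does not touch DNA itself. RUNX1 is needed for blood stem cells to arise in the embryo, RUNX2 for bone formation, and RUNX3 for cytotoxic T cells and some sensory neurons. Each Runx gene is transcribed from a distal and a proximal promoter, called P1 and P2. RUNX1T1, CBFA2T2 and CBFA2T3 form the ETO family of corepressors, which do not bind DNA directly and recruit histone deacetylases. In acute myeloid leukaemia a translocation can fuse RUNX1 to RUNX1T1. Bcl11a encodes a zinc-finger repressor known for silencing fetal globin genes.

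The starts of the Runx genes are shown because a shared stretch of sequence sets the distal starts apart from the proximal ones. The sequences run from 250 bases before to 50 bases after the start and are credited to RefSeq, build GRCm38.p6, the same build as mm10. Capitals mark ACCACA, the core of the motif that RUNX proteins bind, searched on both strands.
Runx1, the first start (chr16:92826025-92826324, minus strand): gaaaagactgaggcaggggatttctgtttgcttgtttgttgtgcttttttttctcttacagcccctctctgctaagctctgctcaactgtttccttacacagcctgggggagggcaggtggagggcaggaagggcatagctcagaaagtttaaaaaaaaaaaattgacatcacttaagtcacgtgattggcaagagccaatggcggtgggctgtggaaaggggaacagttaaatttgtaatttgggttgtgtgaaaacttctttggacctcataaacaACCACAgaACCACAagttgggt
Runx2, the first start (chr17:44814578-44814877, minus strand): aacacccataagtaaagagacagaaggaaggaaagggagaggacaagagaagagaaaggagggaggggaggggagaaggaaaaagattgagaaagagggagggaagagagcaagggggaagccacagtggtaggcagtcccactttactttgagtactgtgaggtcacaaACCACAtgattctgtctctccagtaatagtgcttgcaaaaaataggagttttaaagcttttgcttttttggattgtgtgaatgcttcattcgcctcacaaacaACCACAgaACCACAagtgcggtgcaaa
Runx3, the first start (chr4:135120395-135120694, plus strand): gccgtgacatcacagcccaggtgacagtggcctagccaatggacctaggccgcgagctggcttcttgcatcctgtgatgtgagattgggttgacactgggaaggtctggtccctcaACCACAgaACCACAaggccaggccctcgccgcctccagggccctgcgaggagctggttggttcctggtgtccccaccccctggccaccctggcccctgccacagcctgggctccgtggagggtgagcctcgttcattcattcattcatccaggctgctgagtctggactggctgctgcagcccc
Runx1, the second start (chr16:92697280-92697579, minus strand): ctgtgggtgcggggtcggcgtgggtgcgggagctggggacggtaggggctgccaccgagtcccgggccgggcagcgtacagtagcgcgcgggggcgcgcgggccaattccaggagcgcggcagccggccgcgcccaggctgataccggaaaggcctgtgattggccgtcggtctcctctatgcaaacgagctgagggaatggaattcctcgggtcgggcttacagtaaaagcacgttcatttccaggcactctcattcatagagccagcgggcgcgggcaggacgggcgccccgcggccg
Runx3, the second start (chr4:135152295-135152594, plus strand): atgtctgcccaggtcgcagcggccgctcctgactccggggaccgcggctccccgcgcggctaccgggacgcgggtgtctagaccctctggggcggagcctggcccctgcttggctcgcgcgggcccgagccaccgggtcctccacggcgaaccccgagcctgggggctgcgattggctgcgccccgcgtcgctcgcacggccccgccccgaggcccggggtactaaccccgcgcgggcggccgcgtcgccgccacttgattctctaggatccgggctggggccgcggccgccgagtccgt
The distal starts of Runx1, Runx2 and Runx3 each shared an 18-letter string, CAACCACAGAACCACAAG, the longest that all 3 have in common, in which the RUNX motif AACCACA occurs 2 times in tandem. Counting the start as base 1, it began at base 27 in Runx1 and at base 22 in Runx2, and in Runx3 it began before the start, at −136. Of 32851 mouse promoters of the same length, 4 held this string on either strand (0.0122%). The fourth was the promoter of Gm16225, whose start lies on the other strand within the same window as the distal Runx3 start, so the same DNA is counted there again. A single AACCACA was present in 5.27% of all promoters, and 2 or more copies, which overlap the tandem string, in 0.204%. The shorter core ACCACA was present in 16.8%. Runx2 had another copy of AACCACA before its start, at −81, and no proximal Runx2 start is in the promoter table. None of the motif's letters in this form were found at the proximal starts of Runx1 and Runx3 or at the starts of Cbfb, Cbfa2t2 and Cbfa2t3. The ETS motif ACCGGAA, present in 3.72% of promoters, was found at the proximal start of Runx1 and at the first start of Cbfa2t3. A match describes letters only and does not show that a protein was bound.

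Regions were formed by merging overlapping peaks of the 8 libraries, and every library with a peak inside a region was taken to have called it. Of the 164 regions, 89 were called in all 8 libraries (54.3%, Wilson 95% interval 46.6% to 61.7%), against 54.6% of all regions. A further 25 (15.2%) were called in 1 library only, against 11.6% of all regions. The shares over the 7 genes together thus lay near the background, although Runx1 held 11 of the 25 regions called in 1 library only. The number called per library was 127 and 111 for MUT T1, 125 and 118 for MUT T2, 123 and 132 for WT T1 and 114 and 107 for WT T2. The MUT libraries had 120.25 ± 7.27 and the WT libraries 119 ± 10.9 (SD, n = 4 each). These ranges overlapped, as did those of T1 (123.25 ± 8.96) and T2 (116 ± 7.53). The MUT minus WT difference of 1.25 turned to −1.5 with equal numbers of peaks per list and to −4.17 without the 3 shallowest libraries. Leaving those out leaves no WT T2 library, so genotype and population cannot be told apart in that setting. The T1 minus T2 difference of 7.25 was 2.5 with equal numbers of peaks. Depth was taken from the background level over the genome that the peak caller used, and it ranged from 1.89 to 3.38 fragments per position. The shallowest were the libraries of WT T2 (2.45 and 1.89) and replicate 2 of MUT T1 (2.03), and they also had the 3 lowest numbers of called regions. As a share of everything called in a library, the 7 genes held 0.169% to 0.184%.

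**Figure D1:**
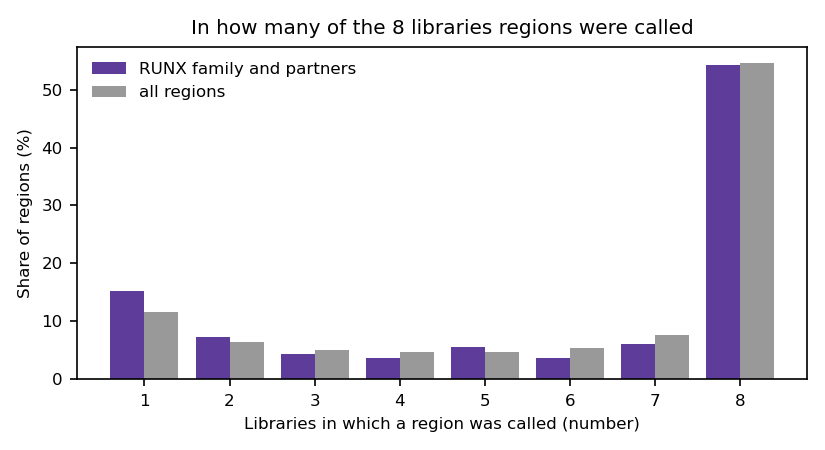
Share of regions (percent) by the number of libraries in which they were called, for the 164 regions at the 7 genes (purple) and all 90736 regions (grey). Both sets are dominated by regions called in all 8 libraries, 54.3% and 54.6%.

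The labelled cell type was checked with markers. Of 10 HSC marker genes, 9 had a region called in all 8 libraries within 1 kb of a gene end (all but Hoxb5), against 64.8% of all 21631 protein-coding genes. The same held for 2 of 4 B cell, 1 of 4 T cell, 1 of 4 granulocyte and monocyte, 2 of 4 erythroid and 3 of 4 stromal and endothelial genes. No region was called in any library near the ends of the defining genes Cd3e, Lck, Cd8a, Elane, S100a8, Gata1, Hba-a1 and Cdh5. Open chromatin at a start does not by itself show that a gene is transcribed.

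All 9 annotated starts of 6 of the genes lay in regions called in every library, as did 60.1% of 21045 protein-coding starts. Runx1t1 has no entry in the promoter table, so its distances are counted from the lower-coordinate end of its span. Its region at that end, chr4:13742823-13744746, was also called in all 8 libraries, at fold enrichments of 6.52 to 9.76. Fold enrichment is the ratio of a peak's summit to its local background as the authors' peak caller gave it, so it is used here only to describe and rank peaks. The proximal starts lay in wider regions than the distal ones. At Runx1 the distal start lay in a region of 1146 bp and the proximal start in one of 2403 bp, 128 kb downstream. At Runx3 the widths were 985 and 2396 bp, and at the 2 starts of Cbfa2t3 they were 683 and 2284 bp. The median width of regions with a start was 1295 bp, and 3.41% were as wide as 2284 bp. The distal and proximal starts also differed in base composition. CpG pairs occurred at 0.137 of the number expected from the base content at the distal start of Runx1, 0.143 at that of Runx2 and 0.264 at that of Runx3. At the proximal starts the ratio was 1.01 for both Runx1 and Runx3. Cbfb (0.987), Cbfa2t2 (1.16) and the second start of Cbfa2t3 (1.09) were likewise rich in CpG, and the first start of Cbfa2t3 was not (0.330).

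**Figure D2:**
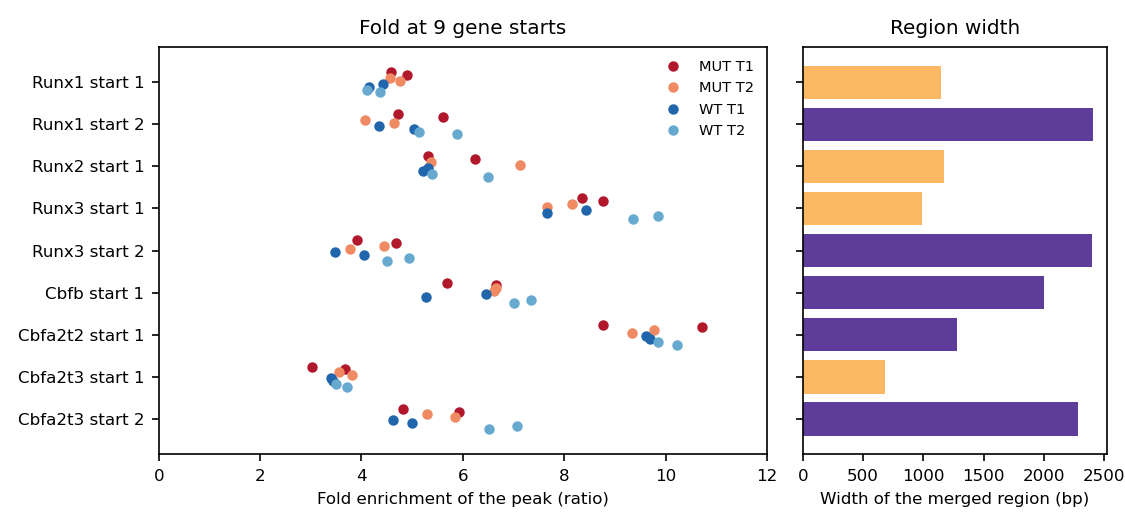
Left, fold enrichment (ratio) of the peak at each of 9 gene starts, 1 point per library coloured by group; right, width in bp of the merged region, purple where CpG pairs reach over 0.6 of the expected number and orange below it. The second starts of Runx1, Runx3 and Cbfa2t3 lie in regions of 2284 to 2403 bp and their first starts in regions of 683 to 1146 bp.

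Runx1, the family member needed for blood stem cells to form, had 29 regions, 21 of them inside its 224.609 kb span. Of these 29, 13 were called in all 8 libraries (44.8%, against 54.6% of all regions). Another 11 were called in 1 library only, where the share of all regions was 11.6%. The intronic enhancer known as +23 lies about 23 kb downstream of the distal start and is active in blood stem cells. The region nearest that position was chr16:92800787-92802175, a stretch of 1389 bp whose summits lay 24.2 to 24.3 kb downstream of the start in every library. The match to the published element rests on this distance alone. Fold enrichment there was 6.50 and 10.2 for MUT T1, 7.45 and 7.68 for MUT T2, 7.16 and 8.28 for WT T1 and 9.58 and 8.68 for WT T2. The highest value came from a MUT library and the lowest from another, and the ranges of all groups of 4 overlapped. Because fold enrichment was generally higher in the shallow libraries, each peak was also ranked among the 49577 regions called in all 8 libraries. The +23 region ranked at the 39.7 to 77.7 percentile in MUT and at the 47.7 to 67.6 percentile in WT, again with overlap. It was called in all libraries under every alternative processing tried. Around it, regions at +3.8, +18.1, +39.1 and +63.8 kb were also called in all 8 libraries, at folds of 3.52 to 6.51 that were below the +23 region in each library.

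The strongest constitutive peak of Runx1 lay beyond its 3′ end, at chr16:92565428-92566316, 260.2 kb from the distal start. It had folds of 9.97 and 11.0 for MUT T1, 12.4 and 9.96 for MUT T2, 9.64 and 10.2 for WT T1 and 15.2 and 12.4 for WT T2. The groups overlapped. By contrast, the distal start had low folds: 4.58 and 4.90 for MUT T1, 4.56 and 4.76 for MUT T2, 4.43 and 4.16 for WT T1 and 4.11 and 4.36 for WT T2. All 4 MUT values exceeded all 4 WT values there, which was true of 0.573% of constitutive regions, those that all 8 libraries called. In percentiles the same peak ranged from 8.7 to 12 in MUT and from 4.4 to 9.8 in WT, so the groups overlapped once each value was ranked within its library. At the proximal start the folds of 4.06 to 5.88 overlapped between genotypes on the ratio scale.

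Near the 3′ end of Runx1, 2 neighbouring regions were called in WT libraries alone. The region chr16:92600041-92600514 was called in WT T1 replicate 2 (4.17) and in both WT T2 libraries (3.60 and 3.80). The region chr16:92600844-92601082, 329 bp away, was called in WT T1 replicate 1 (3.28). Each WT library thus had 1 peak in this stretch, 0.384 to 1.425 kb beyond the span, and no MUT library had one. All of these are weak peaks, and a peak list does not show whether signal lay just below the threshold elsewhere. When windows around the summits were merged in place of whole peaks, the 2 regions became 1, present in every WT list and absent from every MUT list, as were 57 of 94103 regions (0.0606%). The stretch was singled out after its values were seen.

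Runx2, the regulator of bone formation, had the most regions of the 7 genes. Of its 46 regions, 22 were called in all 8 libraries (47.8%, against 54.6% of all regions) and 38 lay in its span of 318.811 kb. Part of that span overlaps Supt3, which encodes a subunit of the SAGA coactivator complex. Of the 46 regions, 11 had their midpoint in Supt3, 5 of them outside the Runx2 span. The strongest constitutive Runx2 region, 37.6 kb downstream of the distal start, holds the start of Supt3 and had folds of 9.15 to 12.6. The next, chr17:44455604-44456272, lay beyond the 3′ end and had folds of 8.34 to 11.6. The distal start itself had folds of 5.32 and 6.24 for MUT T1, 5.37 and 7.12 for MUT T2, 5.31 and 5.21 for WT T1 and 5.40 and 6.50 for WT T2. These ranges overlapped. Called regions numbered 38 and 28 for MUT T1, 35 and 36 for MUT T2, 33 and 39 for WT T1 and 28 and 28 for WT T2. The value of 28 came from exactly the 3 shallowest libraries. A wide region of 2615 bp at +79.4 kb was called in all 8 libraries at folds of 3.78 to 5.96. Beside it, a region at +77.1 kb was called in all 4 MUT libraries and in WT T1 replicate 1, at folds of 2.16 to 2.66, and not in the other WT libraries.

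Runx3, required for cytotoxic T cells, had 20 regions, 12 of them outside its span. It had the highest density of constitutive ones, with 14 regions (70%, against 54.6% of all regions) or 8.90 per 100 kb of window. Of these 14, 4 lay inside the span, so the density mostly describes the flanks. Runx1 had 4.0 per 100 kb, Runx1t1 the lowest value of 2.38, and the median over genes was 4.13. The strongest Runx3 region lay 8.4 kb downstream of the distal start, at chr4:135128564-135129475, with folds of 9.41 to 13.9. The distal start had folds of 7.65 to 9.86, and the proximal start 3.47 to 4.94. A region 46.2 kb downstream, chr4:135166313-135167290, was called everywhere with lower folds in MUT. Its values were 4.06 and 4.68 for MUT T1, 5.02 and 4.24 for MUT T2, 5.89 and 6.50 for WT T1 and 5.90 and 7.83 for WT T2. In percentiles it ranged from 6.9 to 12.9 in MUT and from 20.8 to 42.9 in WT, without overlap on either scale.

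A pair of constitutive regions 3′ of Runx3, inside the neighbouring gene Clic4, ranked in opposite orders between the genotypes. The region at +99.2 kb lay at the 60.6 to 77.8 percentile in MUT and at the 46.7 to 58.2 percentile in WT. Its folds overlapped between the genotypes, with 7.80 in MUT T1 replicate 1 and 8.92 in WT T2 replicate 2. The region at +101.2 kb lay at the 19.7 to 33.2 percentile in MUT and at the 38.5 to 61.7 percentile in WT. Its folds were 6.10 and 5.69 for MUT T1, 6.14 and 5.70 for MUT T2, 7.66 and 8.30 for WT T1 and 7.35 and 7.49 for WT T2. Among the 89 constitutive regions of the 7 genes, 3 ranked higher in every MUT than in every WT library (3.37%, against 1.73% of all constitutive regions). Another 3 ranked higher in every WT library (3.37%, against 1.55%). No test was made of these small counts. Besides the Runx3 regions they were Runx1t1 +8.8 kb and +166.2 kb, higher in MUT, and Runx2 +129.1 kb, higher in WT. On the unranked fold, 2 were higher in every MUT library (2.25%, against 0.573% of all) and 3 in every WT library (3.37%, against 2.46%). The 2 were Runx1t1 +166.2 kb and the distal start of Runx1. The 3 were the Runx3 regions at +46.2 and +101.2 kb and Cbfa2t2 −18.7 kb. On the same scale 0 were higher in every T1 library (0.26% of all) and 5 in every T2 library (5.62%, against 2.97% of all). The 5 were Runx1 +204.8 kb, Runx2 +144.6, +190.9 and +324.4 kb, and Runx3 −40.2 kb. In percentiles between the populations, 3 regions ranked higher in every T1 library (3.37%, against 1.37% of all). They were Runx1t1 +63.3 kb, Runx3 +20.5 kb and Cbfa2t3 −21.0 kb. In every T2 library 1 ranked higher (1.12%, against 1.28% of all), namely Runx2 +144.6 kb.

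**Figure D3:**
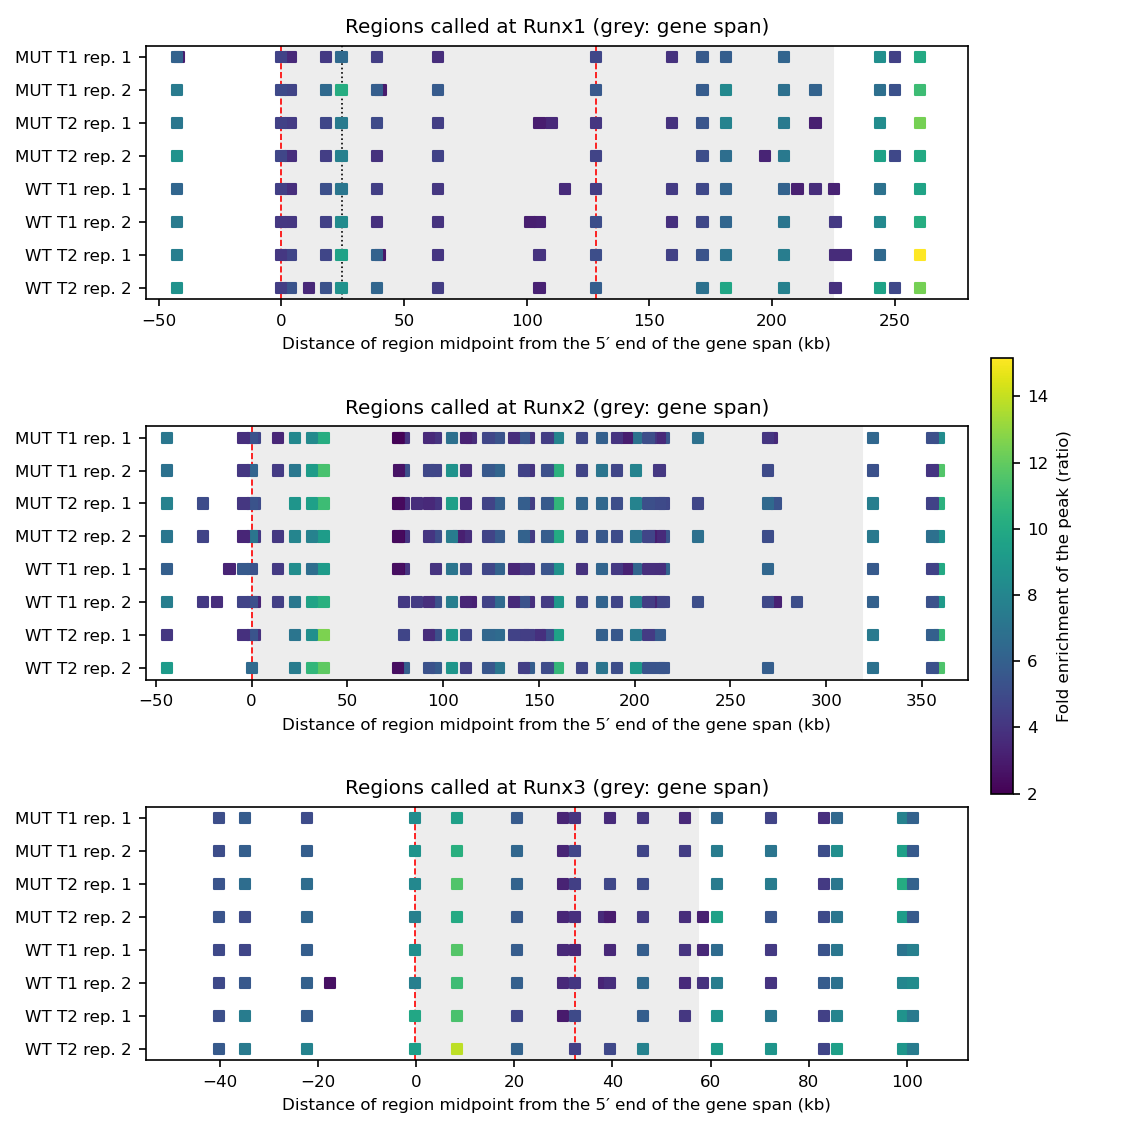
Regions called at Runx1, Runx2 and Runx3 in each library (rows), by distance of the region's midpoint from the 5′ end of the gene span (kb) and coloured by fold enrichment (ratio). Red dashed lines mark annotated starts, the black dotted line marks the Runx1 +23 region and grey shading marks the gene span; the Runx1 region at +260.2 kb reaches 15.2, the highest value drawn.

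Cbfb, which encodes the shared partner of the RUNX proteins, had 15 regions. Of these, 10 were called in all 8 libraries (66.7%, against 54.6% of all regions) and 0 in only 1 library (against 11.6%). Only 3 of the 15 lay inside its span of 47.316 kb, and 8 of the 12 outside lay in other genes. Its start, in a region of 2003 bp, had folds of 5.68 and 6.65 for MUT T1, 6.66 and 6.61 for MUT T2, 6.45 and 5.26 for WT T1 and 7.34 and 7.01 for WT T2. These values overlapped between the genotypes. The strongest peak of all 7 genes lay 49.5 kb upstream of Cbfb, just inside the 50 kb limit of the window, at chr8:105120853-105121554. Its folds were 10.6 and 18.0 for MUT T1, 14.8 and 12.3 for MUT T2, 13.8 and 12.7 for WT T1 and 13.8 and 16.7 for WT T2. It ranked at the 90.2 to 99.9 percentile over the libraries. Nothing in the files ties it to Cbfb other than distance.

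Of the corepressor genes, Runx1t1 had 15 regions, with 6 called in all 8 libraries. This share (40%, against 54.6% of all regions) was the lowest of the 7 genes. Its strongest constitutive region, chr4:13805324-13806539, lies inside the gene and had folds of 8.84 to 10.3. WT T2 replicate 2, the shallowest library, had 7 Runx1t1 regions, while the other 7 libraries had 11 to 14. Cbfa2t2 had 19 regions, 12 of them constitutive (63.2%). Its start had folds of 8.76 to 10.7, with the highest mean of the 9 starts. The region at −18.7 kb had folds of 8.20 and 9.50 for MUT T1, 9.73 and 8.69 for MUT T2, 11.2 and 10.7 for WT T1 and 10.4 and 10.4 for WT T2. All WT values were above all MUT values, but the percentiles overlapped (65.9 to 74.6 in MUT and 73.1 to 90.3 in WT). Cbfa2t3 had 20 regions, 12 of them constitutive (60%). Its first start had folds of 3.03 to 3.80, with the lowest mean of the 9 starts, and its second start had 4.63 to 7.08. The strongest region in the Cbfa2t3 window, at folds of 8.24 to 11.2, holds the start of the neighbouring gene Aprt, an enzyme of adenine salvage.

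The number of regions called per gene was compared between the genotypes by permuting the libraries (an exact two-sided test), for all 19067 protein-coding genes with a region in their window. Runx1 had 16 and 16 regions for MUT T1, 17 and 15 for MUT T2, 18 and 17 for WT T1 and 18 and 17 for WT T2. The means were 16 ± 0.816 in MUT and 17.5 ± 0.577 in WT (SD, n = 4 each), a difference of −1.5 with values that met at 17. It did not pass (exact permutation p = 0.0857, Benjamini-Hochberg adjusted p = 1). Without MUT T2 replicate 1 the difference was −1.83 (exact permutation p = 0.0286, adjusted p = 1). Over all libraries left out in turn, it ranged from −1.83 to −1.17 (exact permutation p from 0.0286 to 0.171). It was −0.75 with only peaks of −log10 q of at least 5 (exact permutation p = 0.514). With equal numbers of peaks it was −1 (exact permutation p = 0.571). Leaving out the 2 regions near the 3′ end, which were singled out after their values were seen, brought the WT mean to 16.5. The other 6 genes differed by −0.75 to 2.25 regions, with an adjusted p of 1 each in the exact permutation test. Across all genes, 163 (0.855%) had an unadjusted p of 0.05 or below and 0 passed after adjustment. None of the 7 genes was among the 163. For T1 against T2, the differences were −0.25 to 2.75 regions, and all 7 adjusted p-values were 1 in the exact permutation test. For Cbfb the difference was 0.75, and 1.5 without MUT T2 replicate 1 (exact permutation p = 0.0286, adjusted p = 1). That library had 14 Cbfb regions, and the other T2 libraries had 11 each. Over all libraries left out in turn, the Cbfb difference ranged from 0.5 to 1.5 (exact permutation p from 0.0286 to 0.771). Over all genes, 52 (0.273%) had an unadjusted p of 0.05 or below and 0 passed after adjustment. The smallest p that 4 against 4 libraries allow is 0.0286, which adjustment over this many genes does not pass for a gene on its own.

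**Figure D4:**
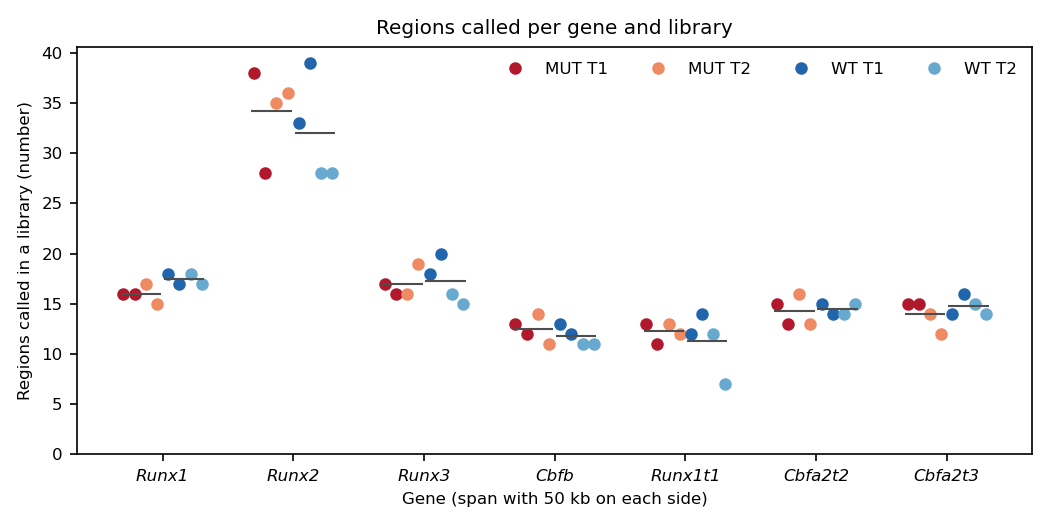
Number of regions called per gene in each library, coloured by group, with lines at the means of the 4 MUT and the 4 WT libraries. Runx1 has 15 to 17 regions in MUT and 17 to 18 in WT, and Runx2 has 28 in each of the 3 shallowest libraries.

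Regions were called gained where both libraries of a first group and neither of a second had them, and lost where only the second group had them in both. No test was made per region, since an exact permutation of 2 against 2 libraries cannot give a p below 0.333. In at least 1 contrast, 15 regions of the 7 genes were gained or lost (9.15%, against 9.8% of all regions). In MUT T1 against WT T1, 2 regions were gained (1.22%, against 1.26% of all regions) and 3 were lost (1.83%, against 2.13%). The gained ones lay at Runx1 +250.2 kb (4.56 and 5.27) and Cbfa2t3 −37.9 kb (2.92 and 3.69). The lost ones lay at Cbfa2t2 −25.6 kb (4.35 and 3.74), Runx3 +58.4 kb (3.47 and 3.92) and Cbfa2t3 −40.1 kb (3.52 and 3.13). The counts were close to the background in both directions.

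In MUT T2 against WT T2, 4 regions were gained (2.44%, against 3.95% of all regions) and 2 were lost (1.22%, against 0.457%). Both WT T2 libraries are shallow, and the background of gained regions is high in this contrast. The 3 gained regions with the highest folds were Runx1t1 +132.9 kb (5.46 and 5.36), Runx2 +233.0 kb (4.75 and 6.82) and Runx2 −25.5 kb (4.98 and 4.63). The fourth was the Runx2 region at +77.1 kb described above. The lost ones were the Runx1 region beyond the 3′ end and a region inside Cbfa2t2, 23.9 kb downstream of its start. That region, chr2:154459731-154460349, was called in both WT T2 libraries (4.84 and 5.47) and in none of the other 6.

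Between the populations, 2 regions were gained in MUT T1 against MUT T2 (1.22%, against 0.641% of all regions) and 1 was lost (0.61%, against 1.74%). The gained ones were Runx1t1 +120.6 kb (3.65 and 4.28) and Cbfa2t3 −37.9 kb, and the lost one was Runx2 −25.5 kb. In WT T1 against WT T2, 6 were gained (3.66%, against 3.9% of all regions) and 1 was lost (0.61%, against 0.632%), which was the Cbfa2t2 region at +23.9 kb. The 3 gained regions with the highest folds were Runx1t1 +132.9 kb (5.10 and 6.29), Cbfa2t3 −28.2 kb (4.64 and 6.08) and Cbfb −28.1 kb (4.34 and 5.83). These contrasts share libraries with one another, and the same regions can recur for that reason. No region of the 7 genes had a peak in every MUT and in no WT library or the reverse, where 0.222% and 0.0606% of all regions were. Likewise none separated all T1 from all T2 libraries, where 0.0507% and 0.0265% of all regions did. Some regions missed such a separation by 1 library, and how many of all regions did so was not counted. Between the genotypes, examples were Cbfa2t2 −25.6 kb, called in all 4 WT libraries (2.76 to 4.35) and in MUT T2 replicate 1 (2.62), and the Runx2 region at +77.1 kb. They were picked after their values were seen. Both shallow WT T2 libraries were among those without the Runx2 peak.

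**Figure D5:**
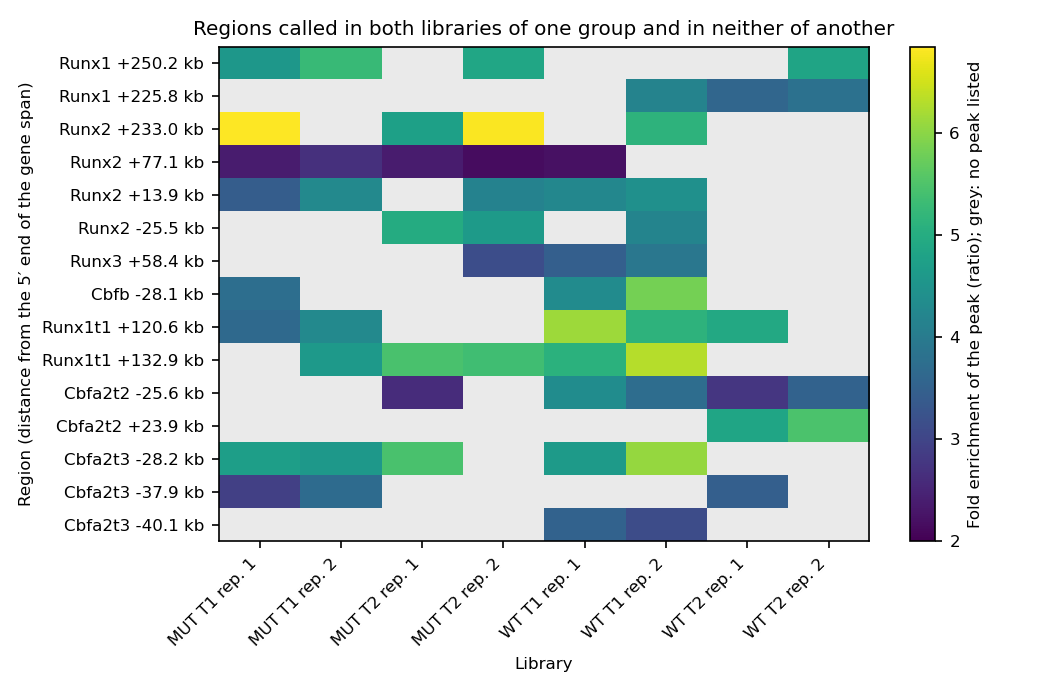
Fold enrichment (ratio, colour) in each library (columns) of the 15 regions that were called in both libraries of a group and in neither of another; grey means that no peak was listed. The coloured values lie between 2.16 and 6.84, and Cbfa2t2 +23.9 kb is coloured in the WT T2 libraries alone.

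Genes that act with RUNX proteins were then described from 2 lists. Of 18 RUNX cofactor genes, which include the NCoR corepressors, histone deacetylases, the acetyltransferases Ep300 and Crebbp, and TLE corepressors, 18 had a region called in all 8 libraries within 1 kb of a gene end, against 64.8% of all genes. Of their 255 regions, 140 (54.9%) were called in all 8 libraries, and 0 separated all MUT from all WT libraries, against 0.222% gained and 0.0606% lost overall. The second list held 24 genes: the partners of RUNX1 in the heptad of blood stem cell transcription factors, and known RUNX targets. Of these, 22 had a constitutive region near an end (all but Fli1 and Il3), and 203 of 368 regions (55.2%) were constitutive. No test was made of either list. In this list 2 regions were gained in all MUT against all WT libraries (0.543%, against 0.222% of all regions) and 1 was lost (0.272%, against 0.0606%), counts too small to compare. The gained regions were chr2:91061012-91061483 near Spi1 (4.13 to 6.05), which encodes the myeloid and lymphoid factor PU.1, and chr5:107681421-107681811 near Gfi1 (4.49 to 5.85), a repressor that restrains HSC cycling. The lost region was chr6:88145828-88146274 near Gata2 (3.24 to 4.25), a factor needed for HSC maintenance. All of them lay outside the gene spans. No gene of either list had an unadjusted p of 0.05 or below for its number of regions in the exact permutation test.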

How the data were processed

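ATAC-seq peaks of 8 libraries were analysed in 4 groups of 2, mapped from the sample titles. Bowtie2, SAMtools, MACS2 and mm10 are named in the submitters' processing notes, without versions; the sources used here do not say whether cut sites were shifted. Peaks were called by the authors in each library by itself. Each deposited peak has a score, a fold enrichment (a ratio), its p-value and q-value on a −log10 scale and the offset of its summit, all by the authors' peak caller. All deposited q-values are 0.001 or below, so a region missing from a list may be open below that threshold.

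Peaks overlapping by 1 bp or more were merged over the 8 lists with Python 3.11.15 (pandas 2.3.3, SciPy 1.17.1). Depth was recovered from the deposited fold and −log10 p-value: both fix the summit pileup and the background, and at least 99.9896% of pileups came out whole (returned −log10 p within 0.001). The steps were tested on simulated data. Gene spans came from a RefSeq table of GRCm38.p6 (7 of 7 genes matched) and starts from its promoter table (6 of 7). Exons and introns were not analysed here, and no enhancer sequence is printed because no genome was used here. Fold was described and ranked, not tested.

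Tests over the summed regions of the 7 genes had been planned; since the genes were chosen by name, these were replaced by an exact two-sided permutation test per gene (70 arrangements), adjusted by Benjamini-Hochberg over 19067 genes. Named regions were those at gene ends, the Runx1 region 22 to 25 kb downstream, the top 2 constitutive regions per gene, regions separating all libraries of a genotype or population and, in contrasts of 2 groups, the 3 with the highest smaller fold; others, and the regions without overlap in fold, were named after their values were seen. The genes and lists were chosen with earlier results of these data known. The alternatives were a −log10 q of at least 5, equal numbers of peaks, windows of 250 bp on each side of a summit, thinning to the lowest background level, a replicate block, leaving out each library, and, chosen after seeing the data, leaving out the 3 shallowest.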

Additional observations from a re-analysis of the deposited data

Results flagged for a closer look

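Of 36 sets of 4 library values checked for a library far from the others, 2 had one. The limit used flags about 1 in 20 sets of independent, normally distributed values. That rate need not hold here, since most sets are small counts, often tied, and the sets share libraries. For Cbfb, MUT T2 replicate 1 had 14 called regions and the other T2 libraries 11 each. For Runx1t1, WT T2 replicate 2 had 7 called regions and the other T2 libraries 12 to 13. WT T2 replicate 2 was also the shallowest library (1.89 fragments per position), and the part of depth in the Runx1t1 value was not tested for that gene alone.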

How the results depend on the processing

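With a library left out, the MUT minus WT difference in called regions ranged from −2.75 to 5.58. The +23 region of Runx1 was called in 100% of libraries under every alternative, and no gene's number of regions passed adjustment under any (lowest adjusted p = 1 in the exact permutation test). The 9 starts lay in regions called in every library under each alternative except summit windows, where 6 did. Counts of gained and lost regions are small and moved with the processing; where not stated below, the cause was not tested. Brackets give the shares of all regions in the same setting. At a −log10 q of at least 5, 150 regions remained. Lost regions were then 5 in MUT T1 against WT T1 (2.16%) and 1 in MUT T2 against WT T2 (0.425%). In MUT T1 against MUT T2, 2 were lost (1.76%). With equal numbers of peaks (62232 per list), 141 regions remained, and 0 were gained in MUT T1 against WT T1 (1.82%). In MUT T2 against WT T2, 1 was gained (1.95%) and 1 lost (1.65%). In MUT T1 against MUT T2, 0 were gained (1.13%) and 0 lost (1.21%). In WT T1 against WT T2, 2 were lost (1.78%). With summit windows, which gave 170 regions, 3 were lost in WT T1 against WT T2 (0.910%) and 1 in all MUT against all WT (0.0606%). Thinning to the lowest background level left 62234 to 70603 peaks per library and 157 regions. In MUT T1 against MUT T2, 1 was then gained (0.862%) and 2 lost (1.79%). In WT T1 against WT T2, 3 were gained (2.88%) and 2 lost (1.07%). Without the 3 shallowest libraries, chosen after seeing the data, 155 regions remained and MUT T1 had 1 library. Fewer libraries make every such call easier by construction. In MUT T1 against WT T1, 6 were gained (6.01%). In MUT T1 against MUT T2, 10 were gained (4.77%) and 2 lost (2.94%). All MUT against all WT had 1 lost (0.917%), Cbfa2t3 −40.1 kb, and all T1 against all T2 had 3 gained (0.766%). Of the 155 regions, 65.8% were called in every remaining library. The same share over all regions was not computed for this setting.

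Leaving out a library makes a gained or lost call easier by construction. Between 159 and 162 regions of the 7 genes then remained, and brackets again give the shares of all regions. MUT T1 against WT T1 had 3 to 6 gained (2.46% to 5.90%) and 4 to 14 lost (3.20% to 9.44%). MUT T2 against WT T2 had 10 to 14 gained (6.61% to 9.81%) and 2 to 10 lost (1.18% to 2.83%). MUT T1 against MUT T2 had 4 to 10 gained (1.65% to 4.69%) and 2 to 10 lost (2.88% to 8.72%). WT T1 against WT T2 had 11 to 18 gained (6.45% to 9.52%) and 1 to 6 lost (1.44% to 3.29%). All MUT against all WT had 0 to 1 gained (0.315% to 0.599%) and 0 to 1 lost (0.0811% to 0.182%). All T1 against all T2 had 0 to 1 gained (0.0820% to 0.350%). The mean number of regions per gene changed sign in several cases, all within an adjusted p of 1 in the exact permutation test. MUT minus WT was 0.25 for Runx3 with summit windows (−0.25 as reported) and −1 to 0.667 with a library left out. It was −0.417 to 1.92 for Runx1t1 and −0.833 to 0.167 for Cbfa2t2 with a library left out, and −0.333 and 0.167 without the 3 shallowest. T1 minus T2 was −0.75 for Runx3 with equal numbers of peaks (1.25 as reported), −0.75 for Runx2 after thinning (2.75 as reported), and for Cbfa2t2 −0.75 to 0.25 with a library left out and 0.167 without the 3 shallowest. With the replicate block the Runx1 difference was −1.5 (exact permutation p = 0.125, the smallest it allows). The labels say nothing of what same-numbered libraries share, so the replicate numbers were not taken as pairs. Fold enrichment was higher in shallow libraries, which limits comparisons on that scale.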
